A study of Mus musculus with 2 samples.

Results

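The potassium channel genes of the mouse were followed through a culture in which muscle progenitors, committed myocytes and sarcomere-rich cells lie side by side. Members were all symbols of the deposited gene list that begin with Kcn, then letters and a number, with Kcnc1 not taken in, which gave 92 genes of 25906. They comprise 26 voltage-gated Kv genes, 5 KCNQ genes, 8 genes of the EAG, ERG and ELK families, 15 inward rectifiers, 14 K2P genes, 8 calcium- or sodium-activated channels and 16 auxiliary subunits.

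RNA of single cells was read by 3′ tag sequencing from 1 MyoD-KO clone and 1 MyoD-WT clone of induced myogenic progenitor cells (iMPCs). These self-renewing, muscle-forming cells were made from mouse embryonic fibroblasts by forced expression of Myf6 together with forskolin (raises cAMP), RepSox (inhibits the TGF-β receptor) and CHIR99021 (inhibits GSK3). Both clones were at passage 4, in medium that held 5 µM forskolin, 5 µM RepSox, 3 µM CHIR99021 and 10 ng/mL bFGF, and both carry the strain label Myod1tm1Jae. The picked colonies grew independently of the Myf6 vector. Each genotype is 1 clone and 1 library, and genotype cannot be told apart from clone, reprogramming or library.

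Potassium channels let potassium leave the cell and hold the membrane at a negative resting voltage. In skeletal muscle, inward rectifiers stabilise the resting voltage, voltage-gated channels end the action potential, and calcium-activated channels couple the membrane to internal calcium. In cultured myoblasts, including human ones, the membrane becomes more negative before fusion, and Kcnj2 currents are known to take part in that step.

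After filtering, 5638 KO cells with 240970199 UMIs (unique molecules counted) and 7316 WT cells with 279006808 UMIs were kept, with medians of 40426.5 UMIs per KO cell and 35515.5 per WT cell. Cells whose UMIs were at least 5% from a list of 20 sarcomere genes were called muscle-rich. Of the rest, cells with Myog, the regulator of muscle differentiation, at 200 CPM (counts scaled to a total of 1000000) or more were called Myog+, and remaining cells with Pax7, the satellite cell regulator, at 50 CPM or more were called Pax7+. The Pax7+ class held 3026 KO and 4315 WT cells, the Myog+ class 927 KO and 1371 WT cells, and the muscle-rich class 989 KO and 819 WT cells; 696 KO and 811 WT cells fell in no class. These classes are ranges on a continuum: 207 KO and 274 WT Pax7+ cells, 143 KO and 222 WT Myog+ cells, and 113 KO and 282 WT muscle-rich cells lay near their limits.

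The class names were set against markers of differentiation that the class rule did not use. The summed level of 7 markers of differentiated muscle (Ckm, Atp2a1, Ryr1, Casq2, Cacna1s, Pygm and Trim63) was 92.5 CPM in Pax7+, 432 CPM in Myog+ and 2922 CPM in muscle-rich KO cells, and 106, 609 and 1745 CPM in the 3 WT classes; all 7 were at 5 CPM or more in muscle-rich cells of both libraries. A list of 8 progenitor markers, Pax7 among them, summed to 980, 753 and 411 CPM in the KO classes. In WT it summed to 571, 563 and 340 CPM, so it did not set Pax7+ apart from Myog+ cells. Its members differed in direction. Heyl had 103 CPM in Pax7+ and 27.8 CPM in Myog+ KO cells, and 19.8 and 5.55 CPM in WT. Megf10 had 64.6 and 290 CPM in KO, and 81.0 and 232 CPM in WT. Over all kept cells Myod1 had 63.3 CPM in the KO library, against 162 CPM in WT. A 3′ tag reads the end of the transcript, and the labels do not say which stretch of Myod1 is lost, so this value does not check the genotype. Barcodes called doublets made up 2.49% of the KO cells, but in WT the caller marked only 2 cells, so doublets there were in effect not removed; 14 barcodes occurred in both libraries. Lists of neural, glial, endothelial and immune markers summed to at most 8.70 CPM in any of the 3 classes. The 4 cardiac markers summed to 6.29 CPM in muscle-rich KO and 17.6 CPM in muscle-rich WT cells, nearly all from Myh6 (6.25 and 17.6 CPM).

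All values below are CPM of 3′ UMIs summed over the cells of a class, so they may be compared between classes for 1 gene, not between genes. With 1 library per genotype and cells that are not replicates there is no test. A gene was counted as higher or lower when 2 classes differed at least 2-fold and the higher held at least 5 CPM. Shares of all genes set beside such counts are of the genes that reached this minimum in the same comparison. Ranges in brackets are 95% intervals that cover counting error only.

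Most channel genes were barely detected. Of the 92 members, 15 (16.3%) reached 5 CPM in at least 1 of the 6 sums, against 41.8% of all genes, and 9 of the 15 did so in both libraries. Another 16 reached 1 CPM, 61 stayed below 1 CPM everywhere, and 8 of those had no UMI in any kept cell: Kcna4, Kcna5, Kcng4, Kcnv1, Kcnj1, Kcnk1, Kcnk16 and Kcnmb1. The 15 were 3 Kv genes, 3 KCNQ genes, 2 of the EAG and ERG families, 1 inward rectifier, 3 K2P genes and 3 calcium-activated channels; no auxiliary subunit was among them. In KO cells 8, 9 and 11 of the 92 members reached 5 CPM in the Pax7+, Myog+ and muscle-rich classes, and in WT cells 2, 7 and 8. Of all genes, 38.1%, 36.8% and 34.2% did so in the KO classes and 35.0%, 34.6% and 32.5% in the WT classes. Summed over all 92 members the level was 173, 343 and 329 CPM in the 3 KO classes and 101, 211 and 315 CPM in the WT classes, so the channel genes together took a larger share of RNA in the Myog+ and muscle-rich cells of each library than in its Pax7+ cells.

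**Figure D1:**
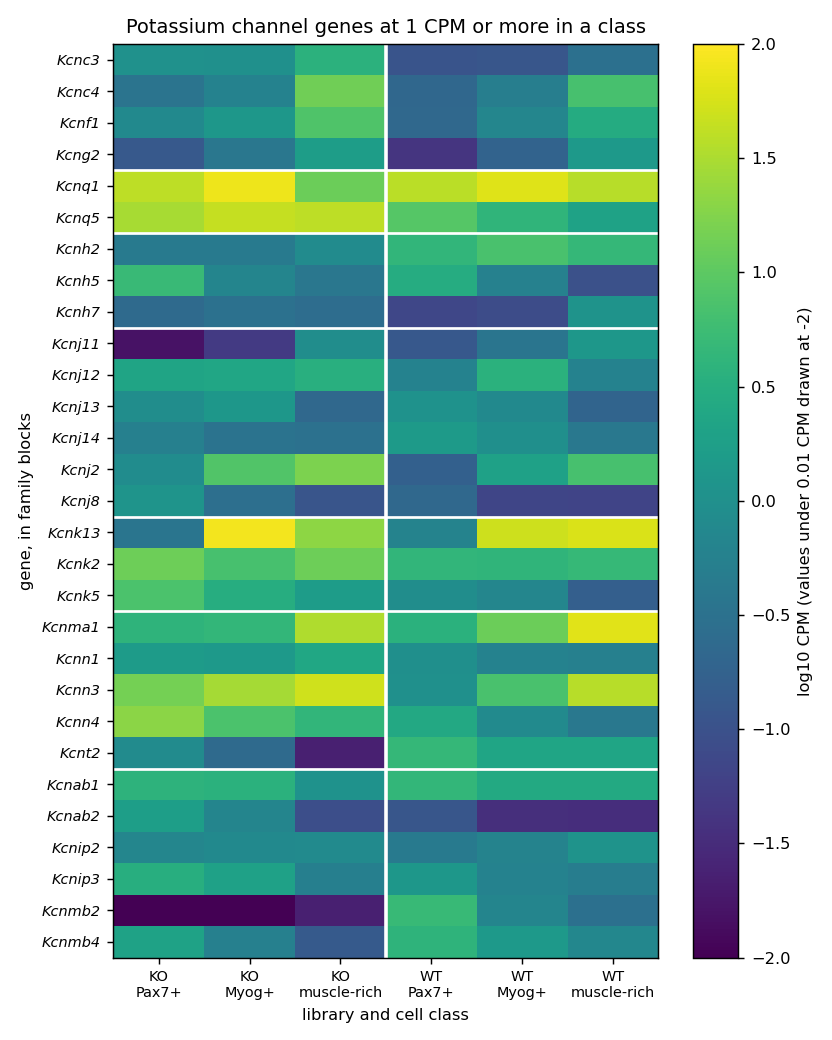
Colour gives the log10 CPM of 29 channel genes that reached 1 CPM in a class, in 3 KO and 3 WT columns and in blocks by family; colours are to be compared along a gene's row. Kcnma1 and Kcnn3 are brightest in muscle-rich cells of both libraries, while Kcnmb2 is dark in every KO column.

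Muscle-rich cells carried a set of channels that Pax7+ cells had at much lower levels. In KO cells 8 members were higher in muscle-rich than in Pax7+ cells and 4 were lower, of 14 that reached the minimum; over all genes 11.5% were higher and 35.3% lower. In WT cells 7 were higher and 1 was lower, of 9 that reached the minimum, against 13.7% and 33.9% of all genes. The 7 that were higher in WT were also higher in KO, which is 7 of 8 in KO and 7 of 7 in WT. Kcnc4, Kcnj2, Kcnk13, Kcnma1 and Kcnn3 are among them. The overlap over all genes is not given here, so it is not known whether this overlap is particular to channel genes. Over members with a mean of 1 CPM or more in the 2 classes, the median log2 ratio was 0.61 over 20 members in KO, beside -0.60 over 12261 genes, and 0.15 over 18 members in WT, beside -0.53 over 11615 genes. With TMM scaling, which rescales each class total, all log2 ratios of muscle-rich over Pax7+ cells shift up by 0.43 in KO and 0.45 in WT. The higher share of all called genes is then 43.0% in KO and 48.4% in WT, against 24.5% and 28.7% by CPM.

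**Figure D2:**
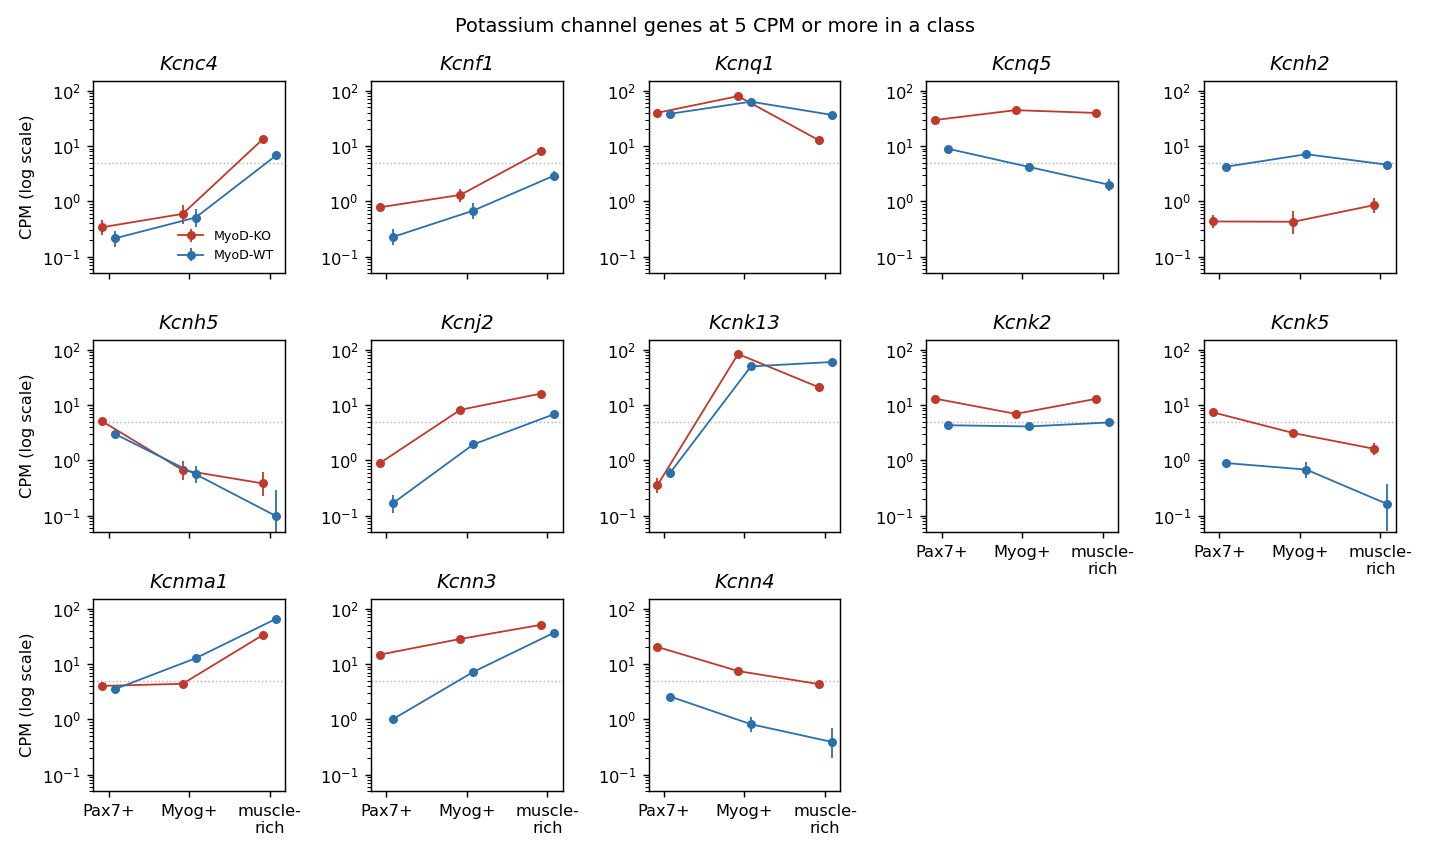
Each panel is 1 channel gene, with CPM on a log axis for the Pax7+, Myog+ and muscle-rich classes of the KO library (red) and the WT library (blue). Bars are 95% counting intervals and the dotted line marks 5 CPM. Kcnj2, Kcnma1 and Kcnn3 climb toward muscle-rich cells in both libraries, Kcnn4 and Kcnh5 go down, and Kcnq5 separates the libraries in all 3 classes.

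Among the Kv genes, Kcnc4 (ENSMUSG00000027895, Kv3.4, a fast-inactivating channel of skeletal muscle) was below 1 CPM in Pax7+ and Myog+ cells of both libraries and above the minimum in muscle-rich cells. Its level was 0.342, 0.596 and 13.6 CPM along the 3 KO classes and 0.215, 0.512 and 6.79 CPM along the WT classes. The muscle-rich level was 39.8-fold (29.3 to 55.3) that of Pax7+ cells in KO and 31.5-fold (22.0 to 46.2) in WT. Between the libraries the muscle-rich ratio was 2.00 (1.71 to 2.36), at the limit itself. The call is lost among cells with 5 to 10% sarcomere UMIs, where KO had 9.32 and WT 5.58 CPM (a log2 ratio of 0.74), with TMM scaling (0.85), with class limits doubled (0.43) and with cells under 5000 UMIs left out (0.996). With class limits halved the muscle-rich call in WT falls under the minimum.

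Kcnf1 (ENSMUSG00000051726, Kv5.1, a subunit that forms no channel alone and modifies other Kv channels) had 0.785, 1.31 and 8.0 CPM in the KO classes and 0.227, 0.682 and 2.92 CPM in the WT classes. In KO it was 10.2-fold (8.16 to 12.9) higher in muscle-rich than in Pax7+ cells, and in muscle-rich cells it was 2.74-fold (2.17 to 3.50) higher in KO than in WT. It stayed below the minimum in every WT class.

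The KCNQ genes, whose channels pass slow currents that damp firing, did not share 1 course. Kcnq1 (ENSMUSG00000009545, Kv7.1, known from the heart and epithelia) was highest in Myog+ cells of both libraries, with 40.01, 79.9 and 12.8 CPM along the KO classes and 38.4, 63.5 and 36.7 CPM along the WT classes. Myog+ cells stood at 2.00 times (1.91 to 2.09) the Pax7+ level in KO, a log2 ratio just under the 2-fold limit, and at 1.65 times (1.59 to 1.72) in WT. In muscle-rich cells KO had 0.350 (0.315 to 0.387) of the WT level; with class limits doubled this log2 ratio was -0.86. Short genes of the reference annotation overlap Kcnq1, Gm38321, Gm37235, Gm37364 and Gm38095 on its strand and Gm38065 on the other, and how such reads were counted is not given in the sources used here, so part of its UMIs may belong to them.

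Kcnq5 (ENSMUSG00000028033, Kv7.5, a relative found in brain and skeletal muscle) went down along the classes in WT and stayed within 2-fold of its Pax7+ level in KO. In KO cells it had 29.6, 44.6 and 39.7 CPM in the Pax7+, Myog+ and muscle-rich classes, and in WT cells 8.97, 4.21 and 2.00 CPM. Muscle-rich cells had 1.34 times (1.27 to 1.42) the Pax7+ level in KO, within 2-fold, and 0.223 times (0.170 to 0.288) in WT. The gap between libraries therefore widened along the classes, from a KO over WT ratio of 3.31 (3.11 to 3.51) in Pax7+ through 10.6 (9.27 to 12.1) in Myog+ to 19.9 (15.4 to 26.1) in muscle-rich cells. Among muscle-rich WT cells only 61 Kcnq5 UMIs were counted, against 1762 in KO. Short genes of the reference annotation, Gm36949 and Gm38243, overlap Kcnq5 on its strand, so part of its UMIs may belong to them.

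Of the EAG and ERG families, Kcnh2 (ENSMUSG00000038319, ERG1, the rapid delayed rectifier of the heart) was lower in KO than in WT, with 0.435, 0.429 and 0.857 CPM in the KO classes and 4.24, 7.13 and 4.62 CPM in the WT classes. In Myog+ cells, the only class in which it reached the minimum, the KO level was 0.0602 (0.0353 to 0.0963) of that in WT. Kcnh5 (ENSMUSG00000034402, EAG2, a voltage-gated channel known from brain) went down along the classes, with 5.10, 0.668 and 0.383 CPM in KO and 3.00, 0.563 and 0.0984 CPM in WT. Its lower level in muscle-rich than in Pax7+ KO cells, at a ratio of 0.0751 (0.0435 to 0.121), rests on a Pax7+ level just above the minimum and is no longer counted with TMM scaling.

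Kcnj2 (ENSMUSG00000041695, Kir2.1, the inward rectifier that sets the resting voltage of muscle) was the single inward rectifier of 15 to reach the minimum. It had 0.894, 8.23 and 16.1 CPM in the KO classes and 0.168, 1.95 and 6.82 CPM in the WT classes. Muscle-rich cells were 18.0-fold (14.8 to 22.2) above Pax7+ cells in KO and 40.7-fold (27.4 to 62.8) in WT. KO was 4.23-fold (3.41 to 5.27) higher in Myog+ and 2.36-fold (2.02 to 2.77) higher in muscle-rich cells; the muscle-rich call is lost with class limits doubled, at a log2 ratio of 0.60, and when each cell has equal weight, at 0.78. Kcnj11 (Kir6.2, the pore of ATP-sensitive channels), added here after its values were seen, reached only 0.924 CPM in KO and 1.31 CPM in WT muscle-rich cells, where Abcc9, the sulfonylurea receptor that pairs with such pores, had 20.2 and 33.5 CPM.

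Kcnk13 (ENSMUSG00000045404, THIK-1, a K2P channel that leaks potassium at rest and is best known from microglia) was below 1 CPM in Pax7+ cells and far higher in both other classes. It had 0.357, 83.8 and 21.1 CPM in the Pax7+, Myog+ and muscle-rich KO cells, and 0.604, 50.1 and 60.1 CPM in the WT classes. Myog+ cells were 234-fold (175 to 321) above Pax7+ cells in KO and 82.8-fold (67.9 to 102) in WT. In muscle-rich cells KO held 0.351 (0.324 to 0.380) of the WT level, and with class limits doubled this log2 ratio was -0.94. Muscle-rich over Pax7+ log2 ratios, 5.88 in KO and 6.64 in WT, were then 5.02 and 4.86. A list of 4 immune genes together gave 2.07 CPM in Myog+ KO and 2.44 CPM in Myog+ WT cells. Of these sums Cd68 gave 1.98 and 2.24 CPM, and it had 2.21 CPM in Pax7+ cells of each library. Ptprc, which all leukocytes carry, was at 0 in Myog+ cells of both. The part of immune cells in the Kcnk13 values was not tested.

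Cell by cell, with every cell thinned to 5000 UMIs, a Kcnk13 UMI was present in 0.132%, 24.8% and 7.98% of Pax7+, Myog+ and muscle-rich KO cells and in 0.255%, 20.2% and 21.8% of the WT classes. Without thinning the shares were 1.45%, 46.3% and 28.4% in the KO classes and 1.88%, 53.6% and 59.95% in the WT classes. Thinning left out 20 Myog+ and 112 muscle-rich KO cells, and 2, 5 and 25 cells of the WT classes. For comparison, Ckm, the muscle creatine kinase, had a UMI in 6.58% of thinned Pax7+ KO cells and 1.53% of Pax7+ WT cells, beside 91.7% and 48.4% of muscle-rich cells, at median depths of 39093 and 47917 UMIs in KO and 36204 and 36390 UMIs in WT.

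The low Pax7+ values can be set beside those of muscle genes as a share of each gene's muscle-rich level. That share was 1.37% in KO and 1.93% in WT for Ckm, and 0.863% and 0.801% for Casq2, a calcium store protein of muscle. It was 1.70% and 1.01% for Kcnk13, 2.51% and 3.17% for Kcnc4, and 5.54% and 2.46% for Kcnj2, each KO then WT. Other channels had larger shares, at 11.9% and 5.36% for Kcnma1, 9.80% and 7.79% for Kcnf1, and 28.9% in KO but 2.73% in WT for Kcnn3. Free RNA was not measured, and its part in the Pax7+ levels was not tested.

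Of the 7 genes that were higher in muscle-rich cells of both libraries, 5 have a promoter entry, and the 3 shown here are those that hold the 6-base E-box CANNTG, which MyoD-family factors bind. Kcnma1 and Kcnn3 have entries with no CANNTG. Each is the 250 bases before the start in RefSeq on GRCm38.p6, another build than the GRCm39 named for the files, matched by symbol, 5′ to 3′ on the gene's strand, with every CANNTG in capitals. Kcnc4 lies on the minus strand at chr3:107458899-107459148, Kcnj2 on the plus strand at chr11:111065914-111066163 and Kcnk13 on the plus strand at chr12:99964249-99964498.
Kcnc4: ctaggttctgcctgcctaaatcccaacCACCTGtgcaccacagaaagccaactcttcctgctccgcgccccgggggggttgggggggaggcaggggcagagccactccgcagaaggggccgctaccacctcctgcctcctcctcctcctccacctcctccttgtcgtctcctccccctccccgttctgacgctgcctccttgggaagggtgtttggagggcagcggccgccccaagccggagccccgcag
Kcnj2: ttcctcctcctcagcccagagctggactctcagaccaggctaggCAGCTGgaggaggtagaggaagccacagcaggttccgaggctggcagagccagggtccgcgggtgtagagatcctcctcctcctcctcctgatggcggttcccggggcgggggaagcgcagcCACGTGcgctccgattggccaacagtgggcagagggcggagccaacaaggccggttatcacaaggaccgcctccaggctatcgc
Kcnk13: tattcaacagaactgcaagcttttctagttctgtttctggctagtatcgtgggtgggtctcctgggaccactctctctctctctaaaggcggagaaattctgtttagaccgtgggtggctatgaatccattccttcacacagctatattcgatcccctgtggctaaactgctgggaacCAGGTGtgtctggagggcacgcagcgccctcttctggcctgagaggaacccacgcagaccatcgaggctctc
The E-box of Kcnc4 begins 223 bases before the start, that of Kcnk13 72 bases before it, and Kcnj2 has 1 at 206 and 1 at 84 bases. Such matches are common. All 32851 promoters of the table were read from 250 bases before to 50 bases after the start on both strands. Of these, 72.3% held CANNTG and 16.3% its CAGCTG form. CTA and TAG with any 4 bases between, a loose form of the MEF2 site, were in 3.69%. Of 92 promoters found for 67 of the members, 67 (72.8%) held CANNTG, 24 (26.1%) CAGCTG and 2 the loose MEF2 form. Of the 5 genes with an entry among the 7 higher in both libraries, 3 held CANNTG and 1 CAGCTG. Every CAGCTG is also a CANNTG. A match is a string of letters and not a bound site.

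The other K2P genes did not follow the sarcomere genes. Kcnk2 (ENSMUSG00000037624, TREK-1, a channel opened by membrane stretch) had 13.1, 6.94 and 13.0 CPM in the KO classes and 4.33, 4.11 and 4.85 CPM in the WT classes. It was 3.03-fold (2.77 to 3.31) higher in KO than in WT Pax7+ cells and 2.68-fold (2.23 to 3.23) higher in muscle-rich cells. Outside the 3 classes it had 100.7 CPM in unclassed KO cells and 6.399 CPM in unclassed WT cells. In KO this was 7.69 times (7.23 to 8.18) the Pax7+ level, and in WT 1.48 times (1.23 to 1.77), within 2-fold. A list of 8 fibroblast markers summed to 1001 CPM in the unclassed KO cells, of which Col3a1 gave 851 CPM, and to 113 CPM in the unclassed WT cells. Its members differed in direction: Dcn was higher in the KO cells, at 132 CPM against 0.789 CPM in WT, while Postn (3.04 and 8.50 CPM) and Col1a2 (0.616 and 2.28 CPM) were lower in KO; 3 of the 8 reached 5 CPM in these KO cells, and 2 of 8 in the WT cells, where Dpt was at 0. In Pax7+ cells that sum was 512 CPM in KO, of which Col3a1 gave 505 CPM, and 104 CPM in WT, with Dcn at 3.11 and 0.311 CPM. Without the Pax7+ cells that had a Dcn or Pdgfra UMI, Kcnk2 stood at 10.6 CPM in Pax7+ KO cells. The part of fibroblast-like cells in the KO over WT difference was otherwise not tested.

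Kcnk5 (ENSMUSG00000023243, TASK-2, opened by alkaline pH) was highest in Pax7+ KO cells, with 7.40, 3.12 and 1.62 CPM along the KO classes and 0.898, 0.682 and 0.164 CPM along the WT classes. In Pax7+ cells KO was 8.25-fold (6.94 to 9.86) above WT. In KO the muscle-rich level was 0.219 (0.170 to 0.279) of the Pax7+ level.

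Of the calcium-activated channels, Kcnma1 (ENSMUSG00000063142, BK, the large-conductance channel opened by voltage and calcium) had 4.03, 4.41 and 34.0 CPM in the KO classes and 3.53, 12.7 and 65.9 CPM in the WT classes. Muscle-rich cells were 8.42-fold (7.62 to 9.32) above Pax7+ cells in KO and 18.7-fold (17.0 to 20.5) in WT. In Myog+ cells KO had 0.346 (0.293 to 0.407) of the WT level, a call lost with class limits halved or doubled and with all barcodes kept. The muscle-rich ratio of 0.515 was just inside 2-fold, and Kcnma1 is counted as lower in KO with TMM scaling (a log2 ratio of -1.11), with equal weight for each cell (-1.12) and among cells with 5 to 10% sarcomere UMIs (-1.0005). A gene on the other strand, 5430425E15Rik, overlaps Kcnma1, so its UMIs are uncertain to that extent. Smooth muscle markers were higher in the same WT cells: 6 of them summed to 921 CPM in muscle-rich KO and 2741 CPM in muscle-rich WT cells. Of these sums Acta2 gave 702 and 2229 CPM. In each library 3 of the 6 reached 5 CPM, and Myh11 and Cnn1 stayed below 1 CPM. The part of these genes in the Kcnma1 values was not tested.

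Kcnn3 (ENSMUSG00000000794, SK3, a small-conductance channel known from developing and denervated skeletal muscle) had 14.8, 28.5 and 51.3 CPM in the KO classes and 1.01, 7.22 and 36.8 CPM in the WT classes. The libraries thus differed most in Pax7+ cells, where KO was 14.7-fold (12.6 to 17.4) higher, less in Myog+ cells at 3.95-fold (3.53 to 4.42; log2 ratios of 1.205 with class limits doubled and 3.19 with them halved), and within 2-fold in muscle-rich cells at 1.39-fold (1.30 to 1.5). Seen within each library, muscle-rich cells had 3.46 times (3.25 to 3.68) the Pax7+ level in KO and 36.6 times (31.1 to 43.3) in WT.

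Kcnn4 (ENSMUSG00000054342, KCa3.1, the intermediate-conductance channel of proliferating cells such as activated T cells) took the opposite course. Its level was 20.4, 7.49 and 4.35 CPM in the KO classes and 2.59, 0.819 and 0.394 CPM in the WT classes. The muscle-rich level was 0.213 (0.183 to 0.247) of the Pax7+ level in KO, a log2 ratio of -2.23 that was -3.17 with class limits doubled; in WT the gene was under the minimum. KO was 7.89-fold (7.12 to 8.75) higher than WT in Pax7+ and 9.14-fold (6.73 to 12.7) higher in Myog+ cells. Split by cell cycle genes, Pax7+ KO cells with 2 or more UMIs of Mki67 and Top2a had 20.0 CPM and those with none 21.9 CPM, a ratio of 0.913 (0.805 to 1.04). In WT these groups had 2.44 and 4.80 CPM, a ratio of 0.509 (0.342 to 0.789).

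The same split of Pax7+ cells was made for other channels. Kcnk2 had 9.40 CPM in the 2362 KO cells with Mki67 and Top2a UMIs and 38.5 CPM in the 406 KO cells with none, a ratio of 0.244 (0.219 to 0.272). In the 3929 WT cells with such UMIs it had 4.29 CPM and in the 210 with none 6.45 CPM, a ratio of 0.664 (0.473 to 0.962), within 2-fold. Kcnma1 had 3.48 and 7.70 CPM in the KO groups, a ratio of 0.452 (0.361 to 0.571), and 3.16 and 12.2 CPM in the WT groups, a ratio of 0.260 (0.201 to 0.341). Kcnq1 was within 2-fold in both, with 38.5 and 43.9 CPM in the KO groups and 36.8 and 69.0 CPM in the WT groups. Cells with no such UMI were also shallower, at medians of 30574.5 UMIs against 42083.5 in KO and 25739.5 against 37317 in WT, and the part of depth was not tested.

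Against Pax7+ cells, fewer members were called for Myog+ than for muscle-rich cells. In KO 4 members were higher in Myog+ than in Pax7+ cells (Kcnj2 and Kcnk13 among them) and 3 were lower (Kcnh5, Kcnk5 and Kcnn4). This was of 11 that reached the minimum, against 6.05% and 10.8% of all genes that did. With TMM scaling the counts were 5 and 2. In WT 5 were higher (Kcnk13, Kcnma1 and Kcnn3 among them) and Kcnq5 was lower, of 8 that reached the minimum. The shares of all genes were 7.44% and 7.06%, and the member counts with TMM scaling 5 and 0. The overlap was 3 of 4 in KO and 3 of 5 in WT, Kcnk13 among them, and here too the overlap over all genes is not given. The Myog+ calls of Kcnma1 and Kcnn3 in WT do not hold with class limits halved, and that of Kcnq5 is lost with TMM scaling, at a log2 ratio of -0.93, and with class limits halved, at -0.92. In KO the Myog+ calls of Kcnh5 with TMM scaling and of Kcnn4 with class limits halved are lost too. The median log2 ratio was 0.10 over 21 members in KO, beside -0.14 over all genes, and 0.33 over 18 members in WT, beside -0.19.

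A finer course split Myog+ cells by Pax7 and muscle-rich cells at 10% sarcomere UMIs, giving 3026, 216, 711, 519 and 470 KO cells and 4315, 438, 933, 664 and 155 WT cells. Kcnk13 ran through 0.357, 10.5, 107, 26.5 and 13.6 CPM in KO and 0.604, 22.4, 67.1, 65.5 and 26.0 CPM in WT, so in KO it was highest in Myog+ cells without Pax7. In WT the Myog+ cells without Pax7 and the muscle-rich cells under 10% overlapped in their counting intervals, and both libraries were lower in the most sarcomere-rich cells. Kcnq1 was highest in Myog+ cells without Pax7 in both libraries and ended below its Pax7+ level. It had 40.01, 64.2, 84.96, 15.9 and 8.61 CPM in KO and 38.4, 49.2, 72.4, 40.02 and 15.7 CPM in WT. Kcnc4 came last, with 0.342, 0.985, 0.472, 9.32 and 19.5 CPM in KO and 0.215, 0.538, 0.496, 5.58 and 14.5 CPM in WT. Kcnn3 in KO was 42.6 CPM in Myog+ cells that still had Pax7 and 24.0 CPM in those without, a dip that WT did not have, at 5.24 and 8.43 CPM. The most sarcomere-rich bin was small in WT, and its counting interval is wide.

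**Figure D3:**
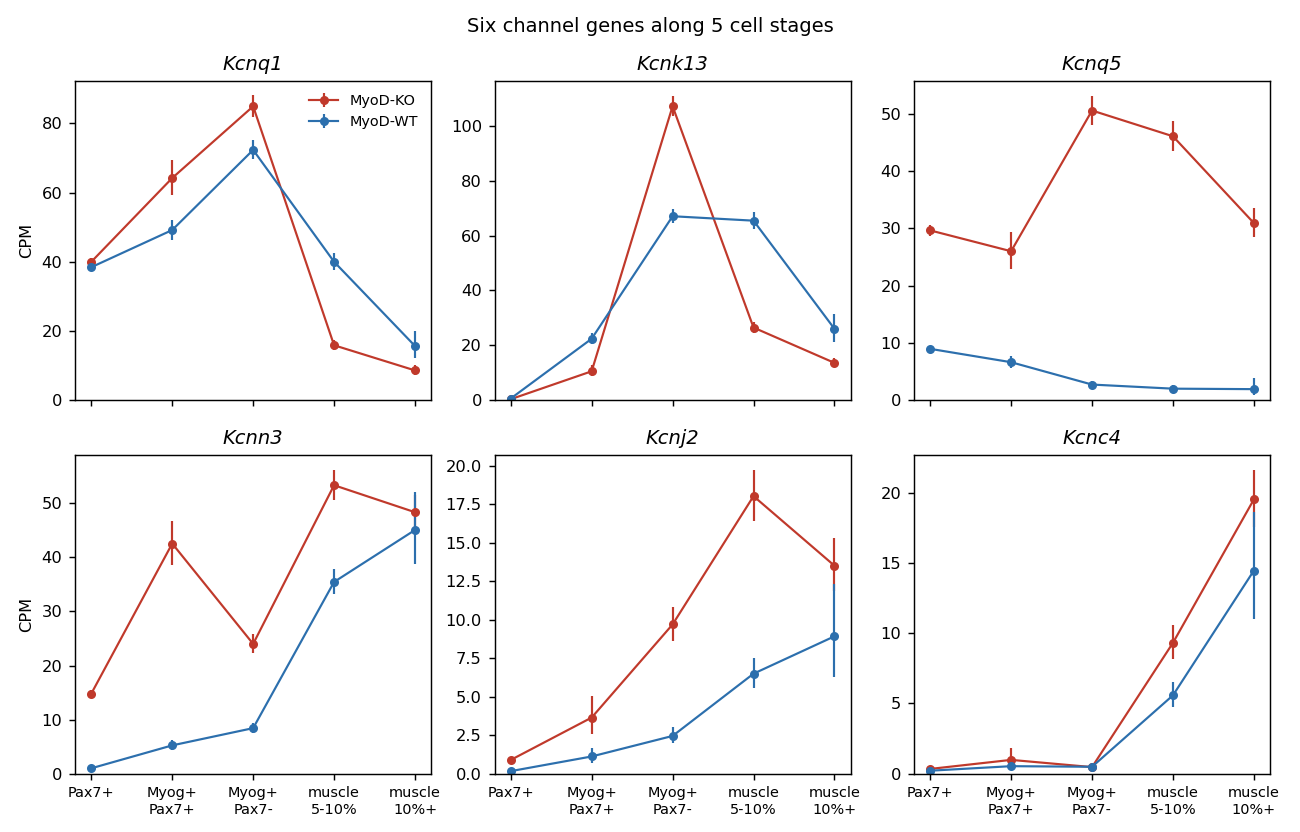
CPM of 6 channel genes along 5 stages, from Pax7+ cells through Myog+ cells with and without Pax7 to muscle-rich cells with 5 to 10% and with 10% or more sarcomere UMIs, for KO (red) and WT (blue); bars are 95% counting intervals. Kcnq1 is highest in Myog+ cells without Pax7 in both libraries and Kcnk13 in KO, while in WT Kcnk13 is level between that stage and the next; Kcnc4 is highest at the last stage and the Kcnq5 lines of KO and WT do not meet.

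Between the libraries more members were higher in KO than lower. In Pax7+ cells 6 were higher (among them Kcnq5, Kcnk2, Kcnk5, Kcnn3 and Kcnn4) and 0 lower, of 8 that reached the minimum, against 16.2% higher and 4.37% lower of all genes. In Myog+ cells 5 were higher (among them Kcnq5, Kcnj2, Kcnn3 and Kcnn4) and 3 lower (Kcnh2 and Kcnma1 among them). This was of 11 that reached the minimum, against 11.9% and 4.74% of all genes. In muscle-rich cells 6 were higher (among them Kcnc4 at the limit, Kcnf1, Kcnq5, Kcnj2 and Kcnk2) and 2 lower (Kcnq1 and Kcnk13). This was of 11 that reached the minimum, against 12.7% and 5.65% of all genes. With TMM scaling the member counts were 5 and 4. Kcnq5 was counted as higher in all 3 classes. The median log2 ratio of members was 0.44, 0.75 and 0.74 in the 3 classes, beside 0.15, 0.17 and 0.11 over all genes; TMM scaling shifts all these ratios by -0.13, -0.20 and -0.15. With class limits doubled the muscle-rich counts were 3 higher and 0 lower. The muscle-rich classes also differ in content, with a median of 9.79% sarcomere UMIs per KO cell and 7.77% per WT cell; among cells at 5 to 10% Kcnq1 had 15.9 CPM in KO against 40.02 CPM in WT, and Kcnk13 had 26.5 and 65.5 CPM.

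**Figure D4:**
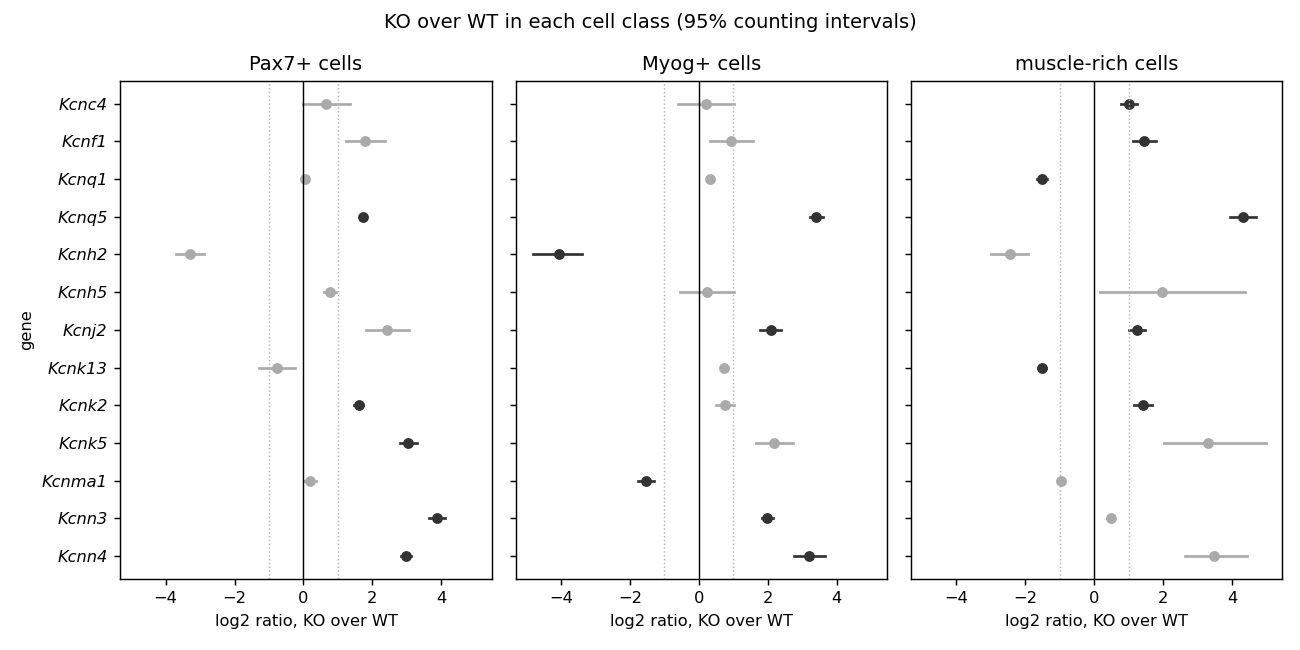
Log2 ratio of KO over WT for 13 channel genes at 5 CPM or more in a class, 1 panel per cell class, with 95% counting intervals; black points are counted as higher or lower, grey points are within 2-fold or under the minimum, and dotted lines mark 2-fold. Kcnq5 lies right of 2-fold in all panels, at ratios of 3.31, 10.6 and 19.9, while Kcnh2 lies left in all.

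Below the minimum, the 3 highest members were Kcnmb2, Kcnt2 and Kcnab1. Kcnmb2, an inactivating beta subunit of BK channels, had 829 UMIs (4.96 CPM) in Pax7+ WT cells and 1 UMI in Pax7+ KO cells. In Myog+ and muscle-rich cells it had 0 and 1 UMI in KO, and 39 and 9 UMIs in WT. Kcnt2, a sodium-activated channel, had 0.855, 0.238 and 0.0225 CPM in the KO classes and 4.67, 2.22 and 2.26 CPM in the WT classes. Gm37834 overlaps Kcnmb2 and Gm37777 overlaps Kcnt2, each on the same strand, with the same limit as for Kcnq5. Kcnab1, a beta subunit of Kv channels, had 3.86, 3.65 and 1.10 CPM in KO and 4.48, 2.73 and 2.66 CPM in WT.

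Partners of these channels and other genes of membrane excitability were followed as a list of 41, all in the files. In KO 25 of them reached the minimum, with 18 higher and 1 lower in muscle-rich than in Pax7+ cells, and in WT 21 reached it, with 15 higher and 0 lower; over all genes 11.5% were higher and 35.3% lower in KO, and 13.7% and 33.9% in WT. In Myog+ against Pax7+ cells 10 were higher and 6 lower in KO, of 20 that reached the minimum, against 6.05% and 10.8% of all genes. In WT 12 were higher and 1 lower, of 19, against 7.44% and 7.06%. Tmem38a, whose trimeric channel balances potassium across the calcium store, had 232 CPM in KO and 218 CPM in WT muscle-rich cells, and its relative Tmem38b 148 and 114 CPM. The calcium channel subunits Cacna1s (87.1 and 99.7 CPM), Cacnb1 (88.8 and 67.4 CPM), Cacna2d1 (320 and 614 CPM) and Cacng1 (672 and 420 CPM) were higher in muscle-rich cells of both libraries, KO then WT. They belong to the channel complex that senses voltage in muscle.

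Several of these genes differed between the libraries. Of 16 that reached the minimum in Pax7+ cells, 6 were higher in KO and 1 lower, against 16.2% and 4.37% of all genes. In Myog+ cells 4 were higher and 4 lower, of 20, against 11.9% and 4.74%. In muscle-rich cells 7 were higher and 1 lower, of 24, against 12.7% and 5.65%. Slc12a2, a sodium, potassium and chloride carrier, had 12.6 CPM in KO and 67.6 CPM in WT Pax7+ cells, but 197 and 137 CPM in Myog+ cells. Cacng1 had 167 CPM in KO and 15.3 CPM in WT Pax7+ cells. Others above 50 CPM were Atp1b3, with 93.3 CPM in muscle-rich KO and 103 CPM in muscle-rich WT cells, Atp1b4, at 83.6 and 43.1 CPM, and Fxyd1, a pump regulator, at 59.1 and 25.8 CPM.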

How the data were processed

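Poly-A RNA of 1 MyoD-KO and 1 MyoD-WT clone was made into 10x 3′ v3.1 libraries from 12000 cells each, about 10000 being targeted, per the labels' protocols. The authors deposited unnormalized UMI counts for each gene in each barcode, and per the file headers the matrices came from Cell Ranger 7.2.0. The submitters' processing notes also list GRCm39 and Seurat, with no role. The annotation release, intron counting and strand setting are not given in the sources used here. The files held 7670 KO barcodes with 282739488 UMIs and 8191 WT barcodes with 285232252 UMIs.

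Cells with under 1000 genes or over 15% mitochondrial UMIs were left out (1888 KO, 873 WT), as were 144 KO and 2 WT barcodes called by Scrublet (scanpy 1.11.5, expected rate 0.06). Marker gates also needed 2 UMIs of the gene. Counts were summed per library and class and divided by the total; Poisson and ratio intervals are exact at 95%. TMM factors came from edgeR 4.0.16. Members at 5 CPM or more in a class are named, except that results for a few genes are not reported here although the counts include them, with the 3 highest below; of the other excitability genes, those at 50 CPM. The limits counted as near were 4 to 6% sarcomere UMIs, 150 to 250 CPM of Myog and 40 to 60 CPM of Pax7. The course was to split muscle-rich cells at 15%, which left 2 WT cells, so 10% was used. That split, the cell cycle split, the 5 to 10% muscle-rich subset, leaving out cells under 5000 UMIs and leaving out Pax7+ cells with Dcn or Pdgfra UMIs were chosen after seeing the data. Calls and intervals were tried on simulated Poisson counts with known changes, which hold no variation between cells, clones or libraries. The members and lists were chosen with earlier results of these data known. Overlapping genes were taken from GENCODE vM21 by identifier, with all 92 members found. Kcnq1ot1 was not analysed here.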

Additional observations from a re-analysis of the deposited data

Results flagged for a closer look

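The log2 ratios of Kcnq5 along the classes had opposite signs in the 2 libraries, although in KO they stayed within 2-fold. The log2 ratio of muscle-rich over Pax7+ cells was 0.42 in KO and -2.16 in WT, a KO minus WT difference of 2.59. The log2 ratio of Myog+ over Pax7+ cells was 0.59 in KO and -1.09 in WT, a difference of 1.68; the WT call is lost with TMM scaling (-0.93) and with class limits halved (-0.92). Along the finer course KO had 29.6, 26.0, 50.6, 46.1 and 30.9 CPM and WT 8.97, 6.63, 2.73, 2.01 and 1.93 CPM. Gm36949 and Gm38243 overlap Kcnq5 on its strand, so part of its UMIs may belong to them. With 1 library per genotype the difference was not tested.

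In the KO cells outside the 3 classes 7 members reached 5 CPM, and 3 of them were flagged. The class comparisons above do not use these cells, although Kcnk2 was described in them. Kcnn4, not flagged, had 1.96 times (1.83 to 2.11) its Pax7+ KO level in them. That was 21.2 times (15.7 to 29.5) its level in the unclassed WT cells. Kcnk2 had 100.7 CPM in the unclassed KO cells, against 6.399 CPM in the unclassed WT cells. Kcne4, an auxiliary subunit that inhibits Kv channels, had 14.1 CPM there, against 0.482 CPM in the unclassed WT cells, and at most 0.559 CPM in a KO class. Kcnk10 (TREK-2, a relative of TREK-1) had 9.24 CPM there, against 0.263 CPM in the unclassed WT cells, and at most 0.361 CPM in a KO class; 5330409N07Rik overlaps it on the same strand. Dcn, a fibroblast marker, had 132 CPM in the same KO cells and 0.789 CPM in the unclassed WT cells; its part in these values was not tested.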

How the results depend on the processing

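No called direction of a named member was reversed under the alternatives run; 185 counts stayed within 1.5 times and 43 did not, and of the single-gene values 25 lost a call, 21 gained one and 1004 did neither. Keeping all barcodes, removing the highest doublet scores, weighting cells equally, leaving out cells under 5000 UMIs and taking muscle-rich cells at 5 to 10% only kept every count within 1.5 times. Counts below are of members, higher, then lower. Except with TMM scaling, the share of all genes called under the same setting is not given here. The counts therefore show only how far the calls move. With no minimum CPM, muscle-rich against Pax7+ gave 18 and 19 in KO and 27 and 17 in WT, Myog+ against Pax7+ gave 11 and 20 in KO and 21 and 12 in WT, and KO against WT gave 35 and 11 in Pax7+, 24 and 14 in Myog+ and 20 and 13 in muscle-rich cells. With a minimum of 1 CPM, muscle-rich against Pax7+ gave 9 lower in KO and 12 and 9 in WT, Myog+ against Pax7+ gave 6 lower in KO and 7 lower in WT, and KO against WT gave 11 and 5, 9 and 5, and 11 and 6 in the 3 classes; more genes are counted by construction. With class limits doubled, lower counts were 3 for muscle-rich and 2 for Myog+ against Pax7+ in WT, 1 for KO against WT in Pax7+ cells and 1 in Myog+ cells, and muscle-rich cells gave 3 and 0. With class limits halved, WT muscle-rich against Pax7+ gave 2 lower, WT Myog+ against Pax7+ 3 higher, and KO against WT in Pax7+ cells 1 lower. With mitochondrial and sarcomere genes out of the total, WT gave 2 lower for muscle-rich and 3 lower for Myog+ against Pax7+, KO against WT in Pax7+ cells 2 lower, and 4 members reached 5 CPM in Pax7+ WT cells. Leaving out Pax7+ cells with Dcn or Pdgfra UMIs gave 2 lower for both WT comparisons and 1 lower for KO against WT in Pax7+ cells. TMM scaling gave 0 lower for WT Myog+ against Pax7+, where 63.3% of all called genes were then higher against 51.3% by CPM, and 4 lower for KO against WT in muscle-rich cells; there 57.9% of all called genes were higher against 69.2% by CPM, and in Myog+ cells 58.4% against 71.5%. The cause of these moves was not tested unless stated. No paired analysis was possible because the labels give 1 library per genotype and no replicate numbers, and for the same reason no library could be left out.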
